A study of Mus musculus with 12 samples.

Results

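The 8 genes described here are the fibroblast growth factor (FGF) receptors Fgfr1, Fgfr2, Fgfr3 and Fgfr4, the FGF carrier Fgfbp1, the receptor kinases Met and Mst1r, and the collagen receptor Ddr1. They were taken by symbol from the 23337 symbols of the deposited count table, and all 8 symbols were in it. The choice was made with earlier results of these data known. Of the 8, 6 had enough counts to be tested, and Fgfr4 and Mst1r did not.

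RNA was sequenced from NU1, a line of normal mouse urothelial cells that became immortal by serial passaging. All cultures carried a hairpin, either the control hairpin shNT, labelled WT, or the hairpin sh4 against Stag2, labelled Stag2-KD. Stag2 is part of cohesin, a ring-shaped complex on chromosomes, and is often mutated in bladder cancer. The 4 groups of 3 libraries were proliferating control (shNT), proliferating knockdown (sh4), quiescent control and quiescent knockdown cells, each with 1 library from experiments 5, 7 and 9. Quiescent cells had grown to confluence and then received 1 µM of rosiglitazone and 0.5 µM of erlotinib in complete medium, and they carry the label of differentiation day 7. Rosiglitazone is an agonist of PPAR gamma, a nuclear receptor, and erlotinib inhibits the kinase activity of the receptor of epidermal growth factor (EGF). The medium of every group held EGF at 5 ng/ml, 15% chelated serum and 0.3 mM CaCl2. Confluence, both drugs and the days in culture therefore cannot be told apart in the quiescence comparisons. Only 1 hairpin against Stag2 was sequenced, in 1 cell line. The labels do not say whether the experiments were separate thaws or infections, so p-values measure the spread between these libraries, which may be partly technical.

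FGF receptors are receptor tyrosine kinases that bind FGF together with heparan sulfate, pair up and recruit the adaptor Frs2, which passes the signal to the RAS-MAPK and PI3 kinase pathways. Fgfr1, Fgfr2 and Fgfr3 are spliced into an epithelial form (IIIb) and a mesenchymal form (IIIc) that bind different FGFs, and Fgfr3 is well known as an oncogene of bladder cancer. Met, the receptor of hepatocyte growth factor (HGF), and Mst1r, the receptor of macrophage-stimulating protein (MSP), respond to ligands that must be cut by proteases before they act. Ddr1 is a receptor kinase with collagen as its ligand. Receptor kinases outside the EGF receptor family, Met among them, are known to carry growth signals in tumours treated with EGF receptor inhibitors.

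Library totals ran from 14524429 to 21987539 counts. Stag2 was lower in every knockdown library: 133 CPM ± 17.4 (SD, n = 3) in control against 27.6 CPM ± 4.96 (SD, n = 3) in knockdown cells while proliferating, and 121 CPM ± 11.3 (SD, n = 3) against 12.1 CPM ± 2.95 (SD, n = 3) in quiescence. CPM is the usual depth-corrected count, a gene's reads relative to the TMM-scaled total of its library. The libraries held abundant RNA of simple-epithelial keratins, with Krt8 between 3493 and 9042 CPM, and of Epcam, between 391 and 888 CPM. Of the basal-cell markers, Trp63 had 0 counts in all 12 libraries and Krt5 did not exceed 6.60 CPM. Of the umbrella-cell markers, the keratin Krt20 lay between 534 and 1738 CPM, while the uroplakin Upk3a had 1 count in all. Summed levels of 8 fibroblast markers did not exceed 2.27 CPM in any library, and those of 5 smooth muscle and 6 endothelial markers stayed below 1 CPM.

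The genes lie on different chromosomes apart from Fgfr3 and Fgfbp1. In RefSeq (GRCm38.p6) Fgfr1 spans chr8:25518759-25575718 (plus strand), Fgfr2 chr7:130162451-130266808 (minus), Fgfr3 chr5:33721724-33737068 (plus) and Fgfr4 chr13:55152818-55168759 (plus). Fgfbp1 spans chr5:43978858-43981828 (minus), Met chr6:17463349-17573980 (plus), Mst1r chr9:107906858-107920383 (plus) and Ddr1 chr17:35681567-35704741 (minus). The GENCODE M21 model of Fgfr2 runs much further, to position 133123350, across 69 other genes. Exon bases shared with another gene, on either strand, made up 13.9% of Fgfr3, 4.53% of Ddr1, 3.04% of Fgfr2 and 1.66% of Fgfr1 in GENCODE, and none of the other members. Whether counting used strand is not given in the sources used here, so reads of such bases cannot be assigned between the partners. Counts per gene also do not separate the IIIb and IIIc forms.

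Entry into quiescence moved the tested members in both directions. In control cells Fgfr2 and Ddr1 rose, while Fgfr1, Met and Fgfbp1 fell, 5 of the 6 tested members in all (edgeR quasi-likelihood test, adjusted p under 0.05). The same test called 20.0% of all 12406 genes in this comparison, and the groups of 4 tested members did not overlap, against 35.6% of all genes. In knockdown cells 4 of the 6 passed the test, against 18.4% of all genes: Fgfr2 and Ddr1 rose, Fgfr1 and Met fell, and Fgfbp1 missed the threshold. The groups of 4 members did not overlap there, against 37.2% of all genes. With a term for the experiment in the fit, called the replicate block below, 35.3% of genes were called in control and 33.0% in knockdown cells. The same 5 members were then called in both. As the members were chosen with earlier results of these data known, their counts stand beside these shares as a description only. In such bulk RNA, fewer cells that express a gene and less RNA of it per cell cannot be told apart.

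**Figure D1:**
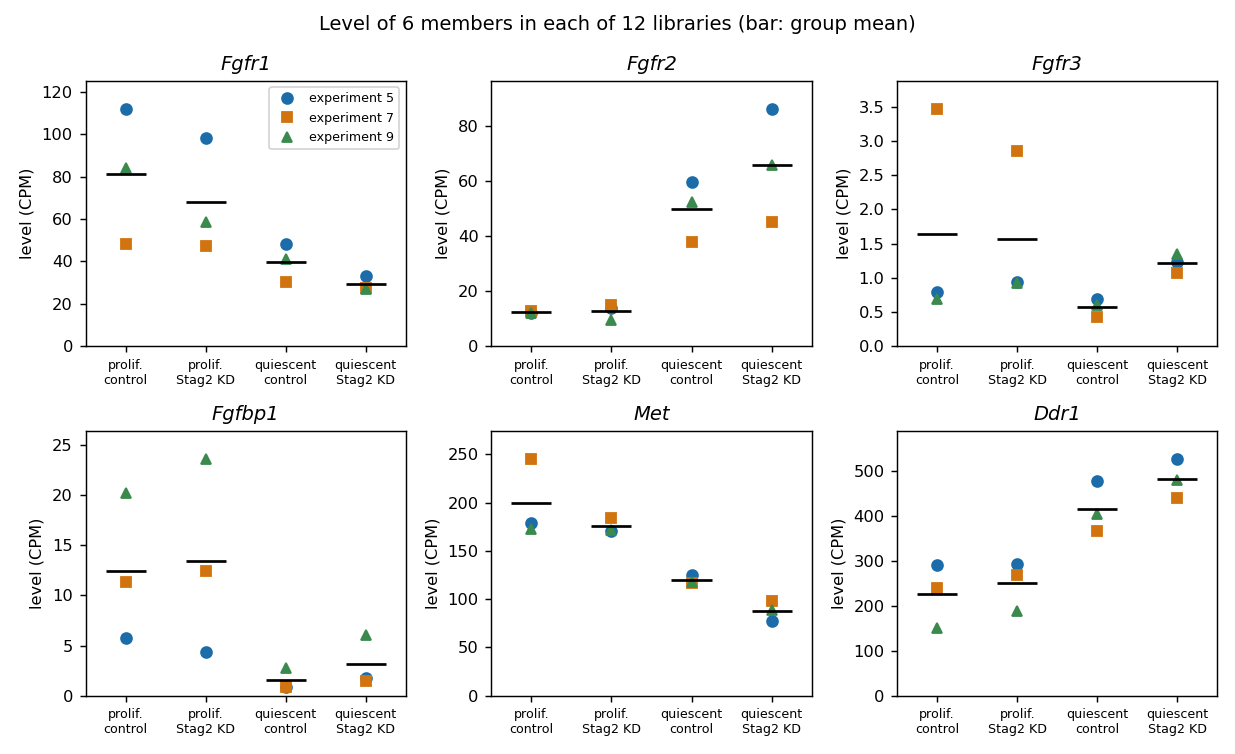
Level in CPM (linear axes from 0) of the 6 tested members in each of the 12 libraries, with symbols for experiments 5, 7 and 9 and a bar at each group mean. Fgfr2 and Ddr1 sit higher in all quiescent than in all proliferating libraries, and Met sits lower in all of them.

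Fgfr2, which in epithelia is the receptor of Fgf7 and Fgf10, had the largest rise. Proliferating control libraries of experiments 5, 7 and 9 held 11.8, 12.8 and 12.1 CPM. Quiescent control libraries held 59.6, 37.9 and 52.2 CPM. The lowest quiescent value was thus well above the highest proliferating one, and the proliferating libraries lay close together. The log2 fold change was 2.03 (SE 0.25, adjusted p 0.000427 by edgeR), which is 4.08-fold. Knockdown cells gave the same picture, with 13.8, 14.8 and 9.41 CPM in proliferation and 86.0, 45.1 and 65.7 CPM in quiescence. Here the change was 2.38 (SE 0.26, adjusted p 0.0004 by edgeR), or 5.19-fold. Within experiments the control difference was 2.32, 1.56 and 2.10 on the log2 scale in experiments 5, 7 and 9, and it was smallest in experiment 7 in knockdown cells too, at 1.60.

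The RefSeq promoter of Fgfr2 is shown because this member rose most, and that of Fgfbp1 because it fell most, in control cells. Both are from GRCm38.p6 and are written 5′ to 3′ on the strand of the gene. The Fgfr2 stretch holds the 250 bases before the start, chr7:130266809-130267058 (minus strand). The Fgfbp1 stretch is chr5:43981829-43982049 (minus strand), upstream of the longest RefSeq model.
Fgfr2 promoter: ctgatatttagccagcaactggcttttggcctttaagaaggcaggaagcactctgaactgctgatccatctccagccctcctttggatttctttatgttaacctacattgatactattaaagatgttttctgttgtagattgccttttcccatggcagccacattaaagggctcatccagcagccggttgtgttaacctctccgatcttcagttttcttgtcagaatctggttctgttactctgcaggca
Fgfbp1 promoter: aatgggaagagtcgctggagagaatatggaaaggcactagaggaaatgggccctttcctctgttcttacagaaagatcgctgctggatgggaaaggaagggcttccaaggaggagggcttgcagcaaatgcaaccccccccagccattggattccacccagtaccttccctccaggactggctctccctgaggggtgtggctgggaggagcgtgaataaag
The GC content was 44.0% in the Fgfr2 stretch and 55.2% in the Fgfbp1 stretch. RefSeq promoter windows, from 250 bases before to 50 after a start, were found for 12 starts of 7 members, and none for Fgfr1. They were searched on both strands for letters of the AP-1 site (TGANTCA), 2 forms of the cell-cycle homology region CHR (TTTGAA and TTCGAA), the TATA box (TATAAA), and the PPAR element, a direct repeat of AGGTCA with a single base between the copies. None of the 5 occurred in the windows of Fgfr2, Fgfr3, Fgfr4 or Mst1r.

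Matches in the 12 member windows were few. The AP-1 letters occurred in 2 windows, 1 of Met and 1 of Ddr1, against 7.81% of 32851 windows of all genes. TTTGAA occurred in 1 window, of Ddr1, against 17.9% of all, and TATAAA in 1, of Fgfbp1, against 13.6%. TTCGAA (1.56% of all windows) and the PPAR repeat (0.0396%) occurred in none. The matched stretches are shown with the motif in capitals, since they are the places where members that moved hold these letters.
Met, chr6:17463892-17463920 (plus strand): tgttgcccggcTGAGTCAcgggccgggca
Ddr1, chr17:35702178-35702206 (minus strand): actgggcagtgTGAGTCAcgggcgtgagg
Ddr1, chr17:35704596-35704624 (minus strand): agtcaacgtccTTTGAAagctttggggtt
Fgfbp1, chr5:43981779-43981807 (minus strand): ttgagctcctgTATAAAtagtacaacctg
Met fell and Ddr1 rose with quiescence, so the AP-1 letters lay in the promoter window of a gene of each direction. Both of these stretches lie, with all 29 bases, inside exons annotated in GENCODE M21. Of the Ddr1 stretch with TTTGAA, 26 of 29 bases lie in such exons, and of the Fgfbp1 stretch 1 base. The TATAAA of Fgfbp1 begins at position 4 counted from the start of its window's transcript as 1, so it lies after that start and not upstream of it. A match of letters says nothing of binding, which was not measured.

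Fgfr1, the FGF receptor typical of mesenchymal cells, fell. Proliferating control libraries held 112, 48.25 and 84.0 CPM in experiments 5, 7 and 9, and quiescent ones 48.30, 30.4 and 41.0 CPM. The value of experiment 7 in proliferation was as low as that of experiment 5 in quiescence, so the groups touched, although the fall was seen within each experiment. In control cells the change was -1.03 on the log2 scale (SE 0.32, adjusted p 0.0438 by edgeR). In knockdown cells the libraries held 98.3, 47.4 and 58.4 CPM in proliferation and 33.1, 27.4 and 27.1 CPM in quiescence, without overlap. Their change was -1.22 on the log2 scale (SE 0.32, adjusted p 0.0237 by edgeR). The call in control cells was close to the threshold. It was kept in 3 of the 12 fits that left out 1 library: those without proliferating control 7, proliferating knockdown 5 or proliferating knockdown 7. The other fits gave adjusted p-values of up to 0.129, reached without quiescent control 7, and the value without proliferating control 5 was -0.73 (adjusted p 0.119 by edgeR). In knockdown cells the call was lost without proliferating knockdown 5 (-0.86, adjusted p 0.0781 by edgeR) and without any one of the quiescent knockdown libraries (adjusted p 0.0557 by edgeR to 0.0871). All 12 such fits kept it in both comparisons once the replicate block was included.

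As Fgfr2 rose and Fgfr1 fell, their ratio was computed, a quantity chosen after the values had been seen. Levels were divided by the length of all exons of a gene in GENCODE M21, since levels of different genes can be compared only per length. The ratio of Fgfr2 to Fgfr1 was 0.101, 0.253 and 0.138 in proliferating control libraries of experiments 5, 7 and 9, and 1.18, 1.19 and 1.22 in quiescent control libraries. Quiescent control libraries thus agreed closely on a ratio just above 1. On the log2 scale the means were -2.72 ± 0.67 and 0.26 ± 0.024 (SD, n = 3 each), a difference of 2.97, or 7.86-fold. In knockdown cells the ratio went from 0.134, 0.298 and 0.154 to 2.48, 1.58 and 2.32, a difference of 3.51 on the log2 scale, or 11.4-fold. The ratio is given as a description, with no test. With the length of the longest transcript the quiescent control ratios were 1.40, 1.42 and 1.45.

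**Figure D2:**
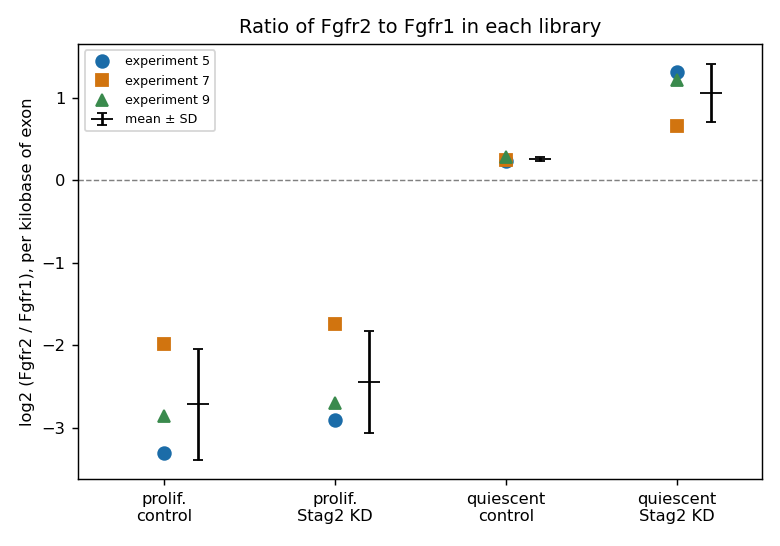
Log2 ratio of Fgfr2 to Fgfr1, both in CPM per kilobase of exon, in each library by group, with symbols for the experiment and the group mean ± SD beside them; the dashed line marks equal levels. Proliferating libraries lie below the line and quiescent ones above it, with quiescent knockdown libraries (ratios 1.58 to 2.48) above quiescent control libraries (1.18 to 1.22).

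Fgfr3 was scarce throughout. Proliferating control libraries held 14, 60 and 12 counts in experiments 5, 7 and 9, which is 0.785, 3.46 and 0.682 CPM. Quiescent control libraries held 10, 7 and 10 counts, or 0.690, 0.428 and 0.596 CPM. Experiment 7 stood out in proliferation only, also in knockdown cells, with 48 counts against 16 and 16. With quiescence in control cells the change was -1.51 on the log2 scale (SE 0.68, adjusted p 0.139 by edgeR), and -0.36 when the proliferating control library of experiment 7 was left out. In knockdown cells it was -0.37 (SE 0.65, adjusted p 0.730 by edgeR).

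Fgfr4 and Mst1r were near or below what counts of this depth can measure. Fgfr4 had 15 counts in all 12 libraries, of which 13 lay in the 4 libraries of experiment 9 and 0 in any quiescent control library. Mst1r had 21 counts in all, with 0 to 4 in a library. A count of 0 allows a level of up to 0.136 to 0.207 CPM, depending on the library, and this covers counting error only. The group means of both genes, up to 0.152 CPM, were at or under that limit, so no fold change is given.

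Fgfbp1 encodes a secreted protein that frees FGFs from heparan sulfate in the matrix and carries them to their receptors. It showed the largest change among the tested members in control cells. Proliferating control libraries held 5.72, 11.3 and 20.2 CPM in experiments 5, 7 and 9, and quiescent ones 0.897, 0.857 and 2.80 CPM. The experiments differed widely, with experiment 9 highest in every group, yet no quiescent control library reached the lowest proliferating one. The log2 fold change was -3.02 (SE 0.79, adjusted p 0.0212 by edgeR), which is 8.10-fold lower. The call was lost without proliferating control 9 (-2.48, adjusted p 0.0728 by edgeR), quiescent control 5 (-2.74, 0.0844) or quiescent control 7 (-2.72, 0.0722).

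In knockdown cells Fgfbp1 went from 4.37, 12.4 and 23.6 CPM to 1.81, 1.49 and 6.09 CPM. These groups overlapped, since quiescent experiment 9 lay above proliferating experiment 5. The log2 fold change was -2.11 (SE 0.75, adjusted p 0.0735 by edgeR). With the replicate block it was -2.07 (SE 0.30, adjusted p 0.000565 by edgeR), and the differences within experiments 5, 7 and 9 were -1.22, -2.96 and -1.93. The fits without proliferating knockdown 5 (-2.53, adjusted p 0.0374 by edgeR) and without quiescent knockdown 9 (-3.01, 0.0454) also called it. DESeq2 called it as well (-2.09, adjusted p 0.0181 by its Wald test).

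Met fell in both kinds of cells. Proliferating control libraries held 179, 245 and 173 CPM in experiments 5, 7 and 9, and quiescent ones 125, 117 and 117 CPM. All quiescent values were below all proliferating ones, and experiment 7 was the highest of the proliferating libraries. The log2 fold change was -0.73 (SE 0.14, adjusted p 0.00491 by edgeR). In knockdown cells Met went from 170, 184 and 172 CPM to 77.1, 98.1 and 89.0 CPM, again without overlap. This was a log2 fold change of -0.99 (SE 0.14, adjusted p 0.00135 by edgeR), or 1.99-fold lower. Met and Fgfr2 were called in both comparisons in every fit that left out 1 library and under each other alternative that was run.

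Ddr1 was the most abundant of the 8 and rose. In control cells it went from 291, 240 and 152 CPM in experiments 5, 7 and 9 to 479, 367 and 404 CPM, with no overlap. The log2 fold change was 0.87 (SE 0.23, adjusted p 0.0223 by edgeR), or 1.83-fold. In knockdown cells it went from 294, 270 and 189 CPM to 528, 441 and 481 CPM, a log2 fold change of 0.95 (SE 0.23, adjusted p 0.0169 by edgeR). Experiment 9 had the lowest proliferating level of Ddr1 with both hairpins, and so the largest difference, 1.41 in control and 1.34 in knockdown cells on the log2 scale. The control call was lost without proliferating control 7 (0.91, adjusted p 0.0611 by edgeR), proliferating control 9 (0.65, 0.0631) or quiescent control 5 (0.77, 0.0767). The knockdown call was lost without proliferating knockdown 9 (0.78, 0.0604), quiescent knockdown 5 (0.88, 0.0606) or quiescent knockdown 9 (0.95, 0.0503).

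**Figure D3:**
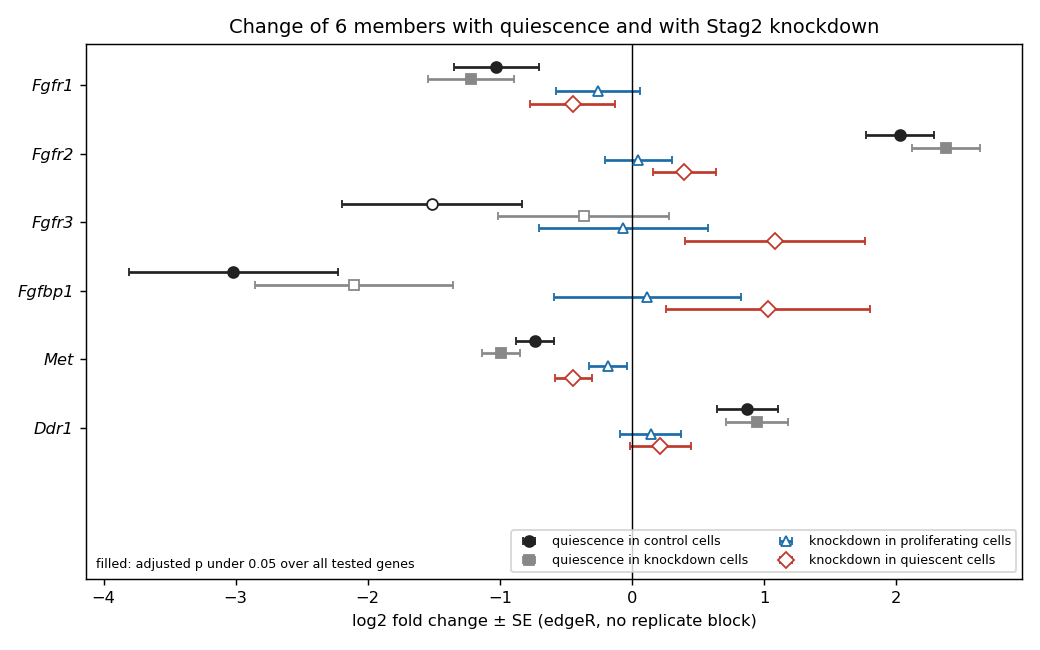
Log2 fold change ± SE from edgeR, without the replicate block, of the 6 tested members in both quiescence comparisons (black and grey) and both knockdown comparisons (blue and red); filled symbols passed an adjusted p of 0.05 over all tested genes. Filled symbols appear in the quiescence comparisons only, with Fgfr2 and Ddr1 to the right of 0 and Fgfr1, Met and Fgfbp1 to the left.

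Per kilobase of exon, Ddr1 stood first and Met next in every group. In proliferating control cells the mean levels were 47.7 CPM per kilobase ± 14.8 (SD, n = 3) for Ddr1 and 25.9 ± 5.19 (SD, n = 3) for Met, and the ranges of these neighbours overlapped slightly. Fgfr1 followed with 8.24 ± 3.22 (SD, n = 3) and Fgfbp1 with 5.49 ± 3.23 (SD, n = 3), which did not differ beyond their spread. Fgfr2 had 1.18 ± 0.0458 (SD, n = 3), below both without overlap. Fgfr3, Fgfr4 and Mst1r, at 0.230, 0.0428 and 0.0265 CPM per kilobase, closed the order, each overlapping the next. The overlaps depended on the length used. By the longest transcript, Fgfr1 (9.57 to 22.2) lay above Fgfbp1 (2.61 to 9.23) without overlap, and Fgfbp1 overlapped Fgfr2 (2.67 to 2.88). Ddr1 and Met, and Fgfr3 and Fgfr4, then did not overlap.

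In quiescent control cells the order below Met had changed. Ddr1 had 87.3 CPM per kilobase ± 11.9 (SD, n = 3) and Met 15.6 ± 0.547 (SD, n = 3), so the gap between them had widened. Fgfr2 came next with 4.83 ± 1.07 (SD, n = 3) and Fgfr1 after it with 4.04 ± 0.911 (SD, n = 3), and these ranges overlapped. Fgfbp1 had 0.671 ± 0.491 (SD, n = 3) and Fgfr3 0.0799 ± 0.0185 (SD, n = 3). In quiescent knockdown cells the order was the same down to Fgfr3, with Ddr1 at 101, Met at 11.5, Fgfr2 at 6.35, Fgfr1 at 2.96, Fgfbp1 at 1.38 and Fgfr3 at 0.170 CPM per kilobase. No neighbours among these 6 overlapped there. By the longest transcript, Fgfr2 (14.8) stood above Met (12.9) in quiescent knockdown cells, with overlapping ranges.

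**Figure D4:**
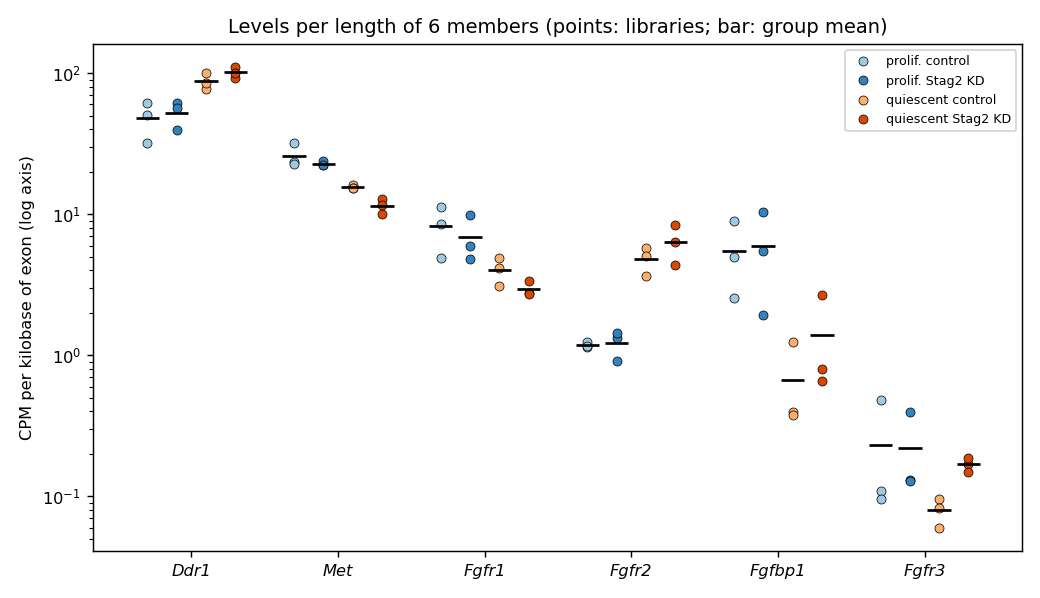
Level of the 6 tested members in CPM per kilobase of exon (log axis), 1 point per library and a bar at the mean of each group of 3. Ddr1 and Met stand highest in all 4 groups, and Fgfr2 moves from below Fgfr1 and Fgfbp1 in proliferating cells to beside or above Fgfr1 in quiescent ones.

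Stag2 knockdown changed none of the 6 tested members past the threshold, in proliferation or in quiescence. In proliferating cells edgeR called 0.0242% of all genes, and the lowest unadjusted p among the members was 0.222. The groups of every tested member overlapped, against 5.31% of all genes whose groups did not. The largest estimates were -0.26 (95% interval -0.95 to 0.44) for Fgfr1 and -0.18 (-0.49 to 0.13) for Met on the log2 scale. Fgfr2 had an estimate of 0.048 (-0.50 to 0.60) and Ddr1 one of 0.14 (-0.36 to 0.64). For Fgfbp1, 0.11 (-1.43 to 1.66), and Fgfr3, -0.066 (-1.47 to 1.34), the intervals leave room for more than a doubling or halving.

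In quiescent cells edgeR called 0.435% of all genes with knockdown, and 3.55% with the replicate block, with no tested member in either. Met came nearest: its knockdown libraries (77.1 to 98.1 CPM) lay below all control libraries (117 to 125 CPM). Its log2 fold change was -0.44 (SE 0.14, unadjusted edgeR p 0.00959, adjusted p 0.230, and adjusted p 0.0662 with the replicate block). Groups did not overlap for Met and for Fgfr3, against 19.1% of all genes. Fgfr3 had 27, 18 and 23 counts in knockdown against 10, 7 and 10 in control libraries, an estimate of 1.08 (SE 0.68, adjusted p 0.596 by edgeR). Fgfbp1 was higher in knockdown cells within each experiment, by 0.93, 0.72 and 1.09 on the log2 scale, and its estimate was 1.03 (SE 0.77, adjusted p 0.675 by edgeR, with the replicate block 0.114). Fgfr1 had an estimate of -0.45 (95% interval -1.15 to 0.25), Fgfr2 one of 0.40 (-0.13 to 0.93) and Ddr1 one of 0.21 (-0.29 to 0.72). At an unadjusted p under 0.05, edgeR found 1 member without and 3 members with the replicate block, against 1489 and 2527 of all 12406 genes. After adjustment DESeq2 called 0 members, against 387 of 12377 genes.

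The ratio of Fgfr2 to Fgfr1 was higher in quiescent knockdown than in quiescent control cells, by 0.80 on the log2 scale, and by 0.41 to 1.07 within the 3 experiments. In proliferating cells the difference was 0.27, and 0.16 to 0.40 within the 3 experiments. It was thus in the same direction in every experiment and state, again as a description. The exact permutation test gave p 0.1 in quiescent cells, the smallest it can give, and p 0.6 in proliferating cells.

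Whether quiescence acted differently in knockdown and control cells was tested by the interaction, the knockdown effect in quiescent minus that in proliferating cells. The edgeR test called 0% of all genes, while 219 had an unadjusted p under 0.05 and 590 with the replicate block, and DESeq2 called 6. No tested member was called by either tool, and the lowest unadjusted edgeR p among them was 0.221, for Met (interaction -0.26, 95% interval -0.70 to 0.18). With the replicate block only Fgfbp1 had an unadjusted p under 0.05, at 0.0408 (interaction 1.01, SE 0.43). The difference in its call between control and knockdown cells is therefore not shown to be a difference in response.

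Among the ligands, Fgf1 and Fgf9 rose from low levels. Of 18 FGF genes, 4 had enough counts to be tested and 2 of these rose with quiescence in both kinds of cells. Over all genes, edgeR called 20.0% in control and 18.4% in knockdown cells. Fgf1, which binds all FGF receptors, went from 1.27 CPM ± 0.896 to 8.39 CPM ± 2.89 (SD, n = 3 each) in control cells, a log2 fold change of 2.72 (SE 0.50, adjusted p 0.00352 by edgeR). Fgf9, named after its values were seen because it lay under the level set for naming, went from 1.06 CPM ± 0.151 to 7.04 CPM ± 0.241 (SD, n = 3 each), a log2 fold change of 2.72 (SE 0.24, adjusted p 5.92e-05 by edgeR). Fgf7 and Fgf10, the mesenchymal ligands of the IIIb form of Fgfr2, had 13 and 3 counts in all 12 libraries, and Fgf2 had 1. The median log2 fold change of the 4 tested ligands in control cells was 1.84, against 0.0047 for all 12406 genes.

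Of 17 genes for FGF coreceptors, the decoy receptor and heparan sulfate carriers, 13 were tested, and 1 rose and 0 fell in both quiescence comparisons. This was Flrt3, a membrane protein that binds FGF receptors, which went from 33.9 CPM ± 4.25 to 108 CPM ± 27.2 (SD, n = 3 each) in control cells, a log2 fold change of 1.68 (adjusted p 0.0012 by edgeR). The replicate block gave 3 that rose and 1 that fell in control cells. The list's median was 0.070 in control cells. Among 24 adaptor and relay genes 22 were tested. In control cells the docking protein Gab1 rose (1.22, adjusted p 0.0084 by edgeR), and the adaptor Shc1 (-1.10, 0.0027) and Nras (-0.48, 0.0057) fell, with a list median of 0.063. In knockdown cells Shc1 and Nras fell as well and none of the list rose. Frs2, the main FGF receptor adaptor, had 57.3 CPM ± 8.42 and 59.9 CPM ± 4.71 (SD, n = 3 each) in proliferating and quiescent control cells. The replicate block gave 3 of each in control cells. For both lists, the shares over all genes were 20.0% in control and 18.4% in knockdown cells, and 35.3% in control cells with the block.

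RNA of the ligand of Met was hardly present: Hgf had 1 count in all 12 libraries. HGF protein, in the cells or in the serum of the medium, was not measured. The MSP gene Mst1 had 0.985 CPM ± 0.771 (SD, n = 3) in proliferating control cells. Of 17 genes for these ligands, their proteases, inhibitors and coreceptors, 13 were tested, and 3 rose and 4 fell in control cells (list median -0.58). Including the replicate block, 6 rose and 5 fell. Over all genes, 20.0% were called in control cells and 35.3% with the block, and in knockdown cells 18.4% and 33.0%. The genes that fell were Nrp1 (-2.05, adjusted p 0.0075 by edgeR) and Cd44 (-1.99, 0.0031), which can act as coreceptors, Plau (-1.45, 0.00045), the urokinase, and Hgfac (-1.29, 0.0090), the HGF activator. Those that rose were the membrane protease Tmprss2 (1.23, 0.0279) and the protease inhibitors Spint1 (0.73, 0.0332) and Spint2 (0.50, 0.0429), which block HGF activators. Levels were high for the inhibitors, with 660 CPM ± 71.2 (SD, n = 3) of Spint2 in quiescent control cells. In knockdown cells Tmprss2 and Spint2 rose, the same 4 genes fell, and the counts with the replicate block were 6 and 4. The list median there was 0.17. With 13 tested genes each median is the value of 1 gene that was not called (adjusted p 0.262 in control and 0.790 in knockdown cells by edgeR). The interaction test called 0 genes of the list, so the 2 medians do not show a different response.

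The collagen list, with the paralog Ddr2, had 17 genes, of which 9 were tested. In control cells 2 rose and 0 fell (list median 0.71), and 4 rose with the replicate block. The shares of all genes called were 20.0% and 35.3% there, and 18.4% and 33.0% in knockdown cells. The basement membrane chain Col4a2 went from 172 CPM ± 43.8 to 342 CPM ± 76.4 (SD, n = 3 each), a log2 fold change of 0.99 (adjusted p 0.0195 by edgeR). Col4a5, named after its values were seen, went from 1.42 CPM ± 0.944 to 14.4 CPM ± 14.1 (SD, n = 3 each), with a spread as large as its mean. In knockdown cells Col4a2 (1.58, adjusted p 0.0023 by edgeR), Col4a1 (1.04, 0.0162) and the scarce Ddr2 rose, and 5 rose with the replicate block. Col1a1 had 57 counts in all libraries, and Col1a2 and Col3a1 had 0.

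**Figure D5:**
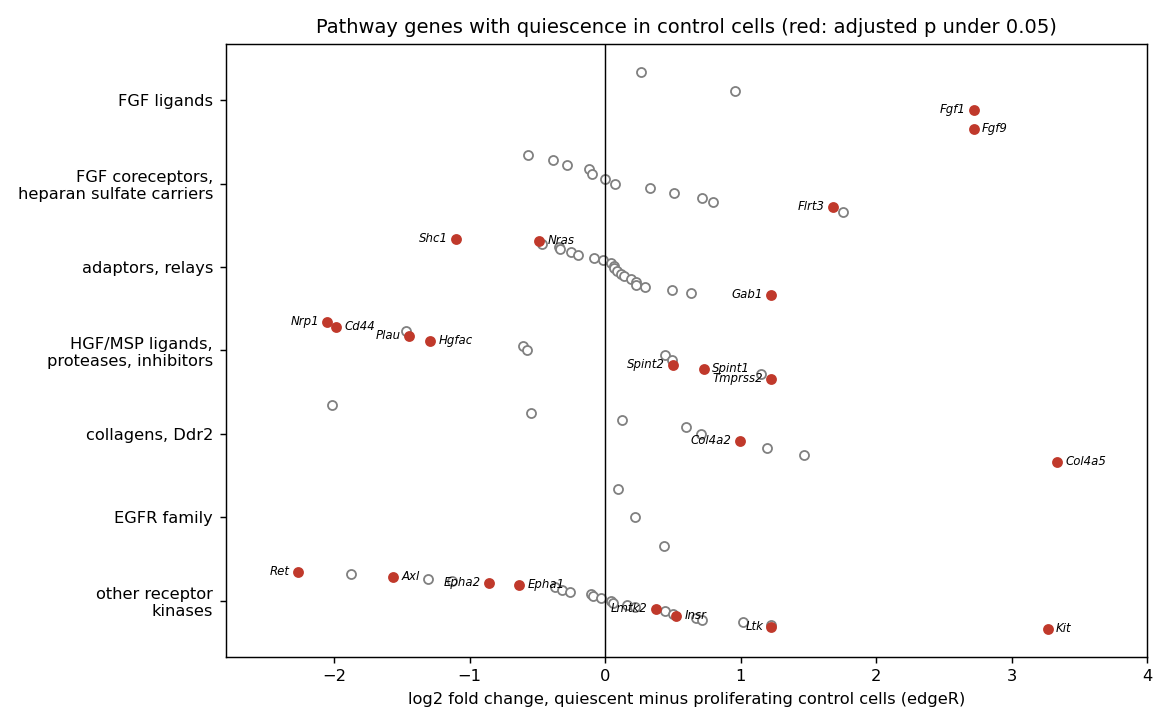
Log2 fold change with quiescence in control cells (edgeR) of each tested gene of 7 pathway lists, 1 point per gene, with genes past an adjusted p of 0.05 in red and named. The HGF and MSP list has 3 red points to the right and 4 to the left of 0, the tested FGF ligands have 2 to the right, and the EGFR family has none.

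Of the other receptor kinases, the EGFR family had 3 of 4 genes tested and 0 called in either quiescence comparison by edgeR, with or without the replicate block, or by DESeq2, with medians of 0.22 in control and -0.12 in knockdown cells. None of the 3 had an unadjusted p under 0.05 in edgeR. Over all genes, edgeR called 20.0% in control and 18.4% in knockdown cells. With 3 genes, 0 called does not set the family apart. Egfr, the target of erlotinib, had 160 CPM ± 25.4 (SD, n = 3) in proliferating and 186 CPM ± 23.9 (SD, n = 3) in quiescent control cells. Of 46 further receptor kinase genes 27 were tested, and 4 rose and 4 fell in control cells (list median 0.043), so both directions were equally frequent there. The stem cell factor receptor Kit rose most, from 10.5 CPM ± 3.92 to 101 CPM ± 36.7 (SD, n = 3 each; 3.27, adjusted p 0.000913 by edgeR). Ltk, Insr and Lmtk2 rose as well, by 1.23, 0.52 and 0.37. Axl fell from 629 CPM ± 191 to 213 CPM ± 19.6 (SD, n = 3 each; -1.56, adjusted p 0.00088 by edgeR), and Epha2 and Epha1 fell by 0.86 and 0.63. Ret also fell and was named after its values were seen. In knockdown cells 2 rose, Kit and Csf1r, and 6 fell, namely Axl, Epha1, Epha2, Epha4, Ret and the scarce Flt1. Ltk and Insr narrowly missed the threshold there (adjusted p 0.0595 and 0.0647 by edgeR) and were called with the replicate block (0.0233 and 0.0234). With the block 6 rose and 5 fell in control cells, against 35.3% of all genes called. In knockdown cells 4 rose and 6 fell, against 33.0%.

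With knockdown, 0 of the 91 tested genes of the 7 lists were called in either state by edgeR without the replicate block. In proliferating cells 8 of them had an unadjusted p under 0.05, against 228 of all 12406 genes, and the block again called 0. DESeq2 called 2 of them there, 1 in each direction, against 12 of 12377 genes. In quiescent cells 15 had an unadjusted p under 0.05, against 1489 of all genes. The replicate block called 7, against 440 of 12406 genes. DESeq2 also called 7, against 387 of 12377 genes. Each gave 4 higher and 3 lower. With the block, those higher were Tmprss4 (1.55, adjusted p 0.0114 by edgeR) and Hpn of the HGF and MSP list, Col4a2, and Csf1r. Those lower were Egfr (-0.83, 0.0326), Epha1 and the scarce Ror1. The values in brackets are log2 fold changes without the block and adjusted p-values with it. Ror1 had 2.22 CPM ± 1.74 in quiescent control and 0.362 CPM ± 0.358 (SD, n = 3 each) in quiescent knockdown cells.

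For each tested member, the 3 genes with the most similar profile were sought by Pearson correlation of log2 CPM over the 12 libraries, among genes whose mean log2 CPM was 2 or more. The libraries share groups and experiments, so these values describe likeness only. Fgfr2 was most like Mkrn1 (r 0.98), Stx7 and Zfp91, and Ddr1 most like App (r 0.99), Nipal2 and Ccpg1. Met was most like 1700025G04Rik (r 0.98), Pak2 and Tead1. Fgfr1 was most like Atp2c2 (r 0.96), Dhx38 and Foxa2, Fgfbp1 most like Tspan4 (r 0.98), Cks2 and Pgm1, and Fgfr3 most like Ccdc117 (r 0.96), Hbegf and Mtrf1l.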

How the data were processed

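The authors deposited 1 table of 23337 gene symbols with raw read counts, which are not normalized. The submitters' processing notes name Bowtie, TopHat, HTSeq, DESeq2 and the build mm10. Per the labels' protocols, polyadenylated RNA was sequenced after stranded library preparation. Which annotation was used, and whether counting used strand, is not given in the sources used here.

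The counts were fitted with edgeR 4.0.16 (R 4.3.3): filterByExpr with its minimum count of 10, which kept 12406 genes, TMM scaling, 4 group means fitted to all 12 libraries by glmQLFit, glmQLFTest for 5 contrasts, and Benjamini-Hochberg adjustment over the tested genes (threshold 0.05). Standard errors were derived from the F statistic. The fit was tested on simulated data. CPM used TMM-scaled totals. Library totals from 14524429 to 21987539 counts set the precision. Limits from a count of 0 cover counting error only, as PCR copies are not independent. The 95% intervals of log2 fold changes come from the edgeR fit and rest on the spread between libraries.

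Replicates were compared before averaging. No pair was identical, and the chi-square per degree of freedom between replicates was 37.5 to 101.5, so all were kept. Experiment numbers pair the libraries, since the labels give each number a batch of its own. Deviations from group means correlated between libraries of the same experiment (mean r 0.526, 0.225 to 0.789, 18 pairs). Between others the mean r was -0.259 (36 pairs). The deviations of each group sum to 0, so this second value follows from the first and is no separate evidence. The fit with this replicate block had a biological coefficient of variation of 0.161, against 0.261 without.

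Exon lengths came from GENCODE M21 (GRCm38) and promoters from RefSeq (GRCm38.p6), read with Python 3.11.15. DESeq2 1.42.0 was an alternative; the others were median-of-ratios size factors, the replicate block, no filter, a mean count of 50 or more, only the libraries of a contrast, the longest transcript and leaving out each library. Library totals without TMM, and the replicate block together with leaving out a library, were added after seeing the data.

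Named were the 8 members, for each tested member the 3 most alike genes, and genes of 7 lists called in a quiescence comparison whose mean log2 CPM was 2 or more, at most 5 each way per list, or called in a knockdown comparison. The lists are FGF ligands; FGF coreceptors, decoy and heparan sulfate carriers; adaptors and relays; HGF and MSP ligands, proteases and inhibitors; collagens and Ddr2; the EGFR family; and other receptor kinases. Some genes of the lists are not reported here by name. Members and lists were chosen with earlier results of these data known.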

Additional observations from a re-analysis of the deposited data

How the results depend on the processing

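Fgfr2 and Met kept direction and call in both quiescence comparisons under all alternatives. Of the 6 tested members, 5 were called in control cells, 3 when only the libraries of that contrast were fitted (Fgfr1 adjusted p 0.0732, Ddr1 0.0553), and 2 to 5 when 1 library was left out. In knockdown cells 4 were called, 5 with the replicate block or by DESeq2, and 2 to 4 when 1 library was left out. With library totals only, Fgfr1 in control cells had an adjusted p of 0.0544. With the replicate block and 1 library left out, 5 were called in every fit of both comparisons, and 0 to 1 with knockdown in quiescent cells (Fgfbp1, adjusted p 0.0410, without quiescent knockdown 7). The replicate block changed no other call of a member.

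Signs were unstable for small effects. With knockdown in proliferating cells, Fgfr3 was 0.0034 with the replicate block. Leaving out 1 library there gave -0.82 to 1.09 for Fgfr3, -0.62 to 0.041 for Fgfr1, -0.58 to 0.66 for Fgfbp1, -0.083 to 0.36 for Ddr1 and -0.080 to 0.21 for Fgfr2. For quiescence in knockdown cells Fgfr3 ran from -0.64 to 0.39, and for the interaction Ddr1 ran from -0.14 to 0.29, Fgfr1 from -0.49 to 0.17 and Fgfr3 from -0.0083 to 1.90. With the block as well, the ranges were -0.41 to 0.85 (Fgfr3), -0.26 to 0.27 (Fgfbp1), -0.25 to 0.24 (Fgfr2) and -0.022 to 0.26 (Ddr1) for knockdown in proliferating cells, -0.49 to 0.38 for Fgfr3 with quiescence in knockdown cells, and -0.11 to 0.24 for the interaction of Ddr1. By the longest transcript, 30 of 32 places in the order of levels were kept, but some overlaps between neighbours changed. The cause of these shifts was not tested. Counts under about 60 per library limit Fgfr3.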

Other observations

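Csf1r, the receptor of macrophage colony-stimulating factor, is both a receptor kinase of the lists and a marker of macrophages. It ranged from 10.5 to 163 CPM over the 12 libraries and rose with quiescence in knockdown cells (log2 fold change 1.81, edgeR adjusted p 0.0110), from 35.8 CPM ± 13.2 to 125 CPM ± 33 (SD, n = 3 each). Quiescent control cells held 42.0 CPM ± 15.3 (SD, n = 3), and the knockdown effect in quiescence was 1.57 (edgeR adjusted p 0.128, with the replicate block 0.0385). Other macrophage and leukocyte markers were at or near 0: Ptprc did not exceed 0.408 CPM and Itgam 0.410 CPM, and Cd3e had 0 counts, while Cd68 ranged from 1.55 to 9.36 CPM. Summed over the 7 immune markers, of which 3 had 0 counts in all libraries, the level was 15.6 to 33.3 CPM in proliferating control, 26.3 to 55.4 CPM in proliferating knockdown, 39.7 to 61.9 CPM in quiescent control and 110 to 170 CPM in quiescent knockdown libraries. Most of it was Csf1r. The part of this signal in the changes of the members was not tested.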
